A study of Mus musculus with 24 samples.

Results

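The transcripts described here are 9 genes of myelin and of the oligodendrocyte lineage, Mbp, Mobp, Mog, Mag, Cnp, Cldn11, Mal, Cspg4 and Olig1, as they were read in sorted microglia. They were taken from a list of gene names, which was drawn up with earlier results of these data known. They are 9 of the 35519 genes that the libraries report. The 24 Smart-Seq2 libraries, a full-length method without strand or molecular identifiers, each came from 1000 Ly6C-CD11b+Fcrls+ microglia of whole brain from C57BL/6 mice. The mice were female or male and either wild type (WT) or without neuroligin-4 (NL4-/-), a synaptic adhesion protein. For each combination there were 2 control libraries and 4 phagocytosis libraries. The labels give neither the age of the mice nor the material that was phagocytosed, and do not say where the uptake took place. By the design text replicates are biological, with 5 in a phagocytosis group, of which the fifth is not analysed here. The study's question, by its title, is a microglial state that depends on sex in this knockout, and for these genes it becomes a comparison of phagocytosis with control libraries in each sex and genotype.

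Oligodendrocytes wrap axons in myelin, a stack of membrane held together by a small set of very abundant proteins. Their progenitors carry the proteoglycan NG2, the product of Cspg4, and the transcription factor Olig1. Microglia, the macrophages of the brain, clear myelin debris and dying cells.

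Of the 9 genes, 2 were called higher in phagocytosis libraries, Mbp and Cspg4, and 0 were called lower. Mbp, the protein that binds the inner faces of the myelin membrane together, was higher by 1.53 ± 0.35 on the log2 scale (SE). Cspg4 was higher by 3.57 ± 0.68. Mobp pointed the same way and missed the threshold, Mag and Cnp did not pass, with folds near 0 on the log2 scale, and Mog, Cldn11, Mal and Olig1 had 1 to 3 reads over all 24 libraries. The test was edgeR's quasi-likelihood F test with Benjamini-Hochberg adjustment over the 9803 genes that passed an expression filter (threshold 0.05), on the mean of the 4 differences within a sex and genotype. The filter let 5 of the 9 genes through. No control held more than 3 reads of Cspg4 or 5 of Mobp, so both passed it only through phagocytosis libraries. In the same comparison 13.6% of all genes tested were called (822 higher and 508 lower), which is the background for the 2 of 5. Because Cspg4 entered through the state where it was higher, the 2 of 5 is no result about the set. The median log2 fold change over all genes tested was -0.0053.

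**Figure D1:**
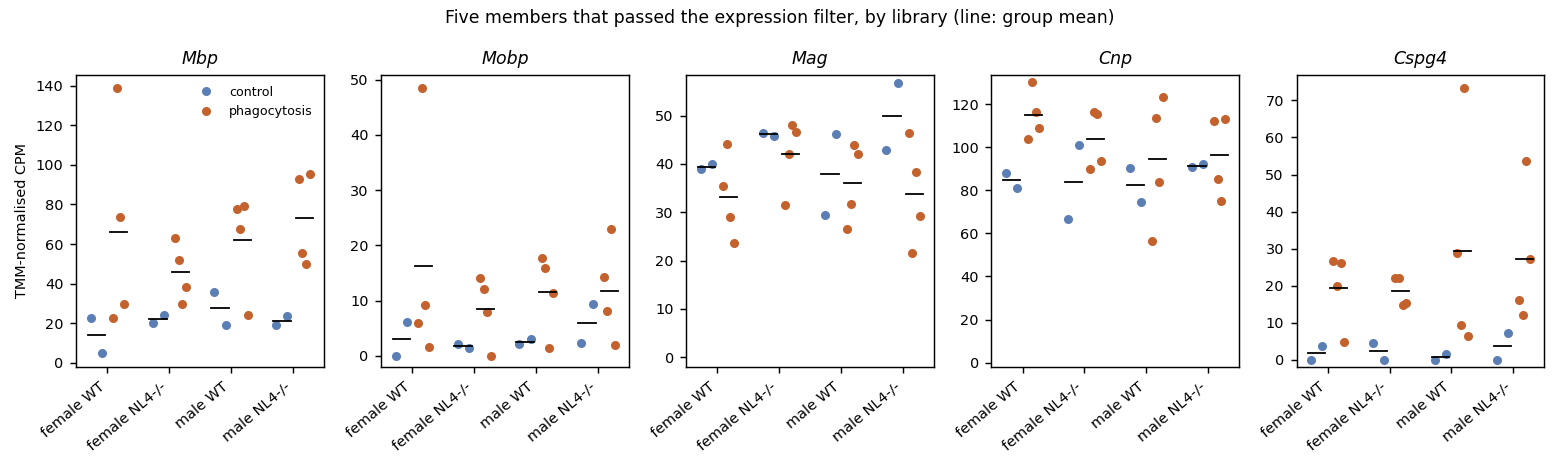
TMM-normalised reads, scaled to 1000000 per library (CPM), of the 5 genes that passed the filter, with a point for each library and a line at each group's mean. Cspg4 was above every control in 14 of the 16 phagocytosis libraries and Mbp in 12, whereas Mag was above every control in 0.

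Total reads ran from 421107 to 1013797 per library, so that 10 CPM corresponds to about 4 to 10 reads. The 10 markers of microglia summed to between 18437 and 43917 CPM, far above every other cell type examined. The sum stood at 37883 ± 5358 CPM in controls (SD, n = 8) and 28643 ± 7052 in phagocytosis libraries (n = 16), and 3 of the 10, Fcrls, Csf1r and Siglech, were called lower by edgeR, with a median log2 fold change of -0.41 over the 10. Summed markers of other cells also differed in mean between the states, with wide spreads. The 15 neuron genes summed to 43.3 ± 12.8 CPM in controls and 91.8 ± 28.9 in phagocytosis libraries; Uchl1 alone went from 2.01 to 32.3 CPM, and it and Eno2 were called higher of 4 tested. The 14 astrocyte genes summed to 121 ± 39.7 and 144 ± 62.1 CPM, with Gfap and Aldoc called higher and Slc1a3 lower of 4 tested. Uchl1, Eno2, Gfap and Aldoc had 11, 12, 8 and 14 reads over all controls. They passed the expression filter only through phagocytosis libraries, so these counts of calls are no result about the lists. Over all genes tested 13.6% were called. The 15 endothelial genes summed to 34.4 ± 7.70 and 51.3 ± 19.1 CPM, with Pecam1 at 89 and 330 reads, Cldn5 at 0 reads in all libraries and 0 called of 2 tested. The 7 erythroid genes summed to 17.2 ± 30.8 and 74.7 ± 229 CPM (medians 3.06 and 10.7, highest phagocytosis library 928), with 0 called of 2 tested. Satellite-like predicted genes took a median of 11.0% of control reads and 5.93% of phagocytosis reads, and 3 control libraries lay above 20%, namely the second of male WT mice and the first of female and of male NL4-/- mice. The part of these differences in the results below was not tested, except where a value without those 3 libraries is given.

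Among the genes of compact myelin, Mbp carried the most reads that differed. The gene lies on chromosome 18 at 82475146 to 82585637 on the plus strand (GRCm38, GENCODE M21) with 16 annotated transcripts. In female WT mice Mbp had 20 and 4 reads in the controls and 23, 63, 48 and 19 in the phagocytosis libraries. Female NL4-/- mice gave 9 and 18 reads against 40, 26, 26 and 33. Every female phagocytosis library except female WT phagocytosis 1 was thus above both controls of its genotype in Mbp per depth. Male WT mice gave 17 and 13 reads in the controls and 70, 51, 54 and 19 in the phagocytosis libraries, and male NL4-/- mice 8 and 10 against 52, 41, 39 and 49. Scaled to depth, Mbp stood at 21.2 ± 8.50 CPM in controls (n = 8) and 61.9 ± 31.1 CPM in phagocytosis libraries (n = 16, adjusted p = 0.00544 by edgeR). The states overlapped: the highest control, male WT control 1, was at 35.7 CPM, and 12 of 16 phagocytosis libraries lay above it, the lowest at 22.7 CPM. Across the filtered genes 78 of 9803 had every phagocytosis library above every control (0.796%), and none of the 9 genes described here was among them. Pooled over libraries, 653 of the phagocytosis reads and 99 of the control reads were Mbp, a rate ratio of 2.97 with an exact 95% interval of 2.40 to 3.70 that covers counting error only. Without the 3 controls rich in satellite-like reads the log2 fold change was 1.37 and the adjusted p 0.107, so the call of Mbp was lost there. That fit leaves a single control library in each group that lost a control, and what fewer controls alone would do was not tested. In bulk libraries of this kind, fewer cells with the RNA and less RNA per cell cannot be told apart.

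Mbp is transcribed from separate groups of starts. The downstream starts give the classic myelin basic proteins of oligodendrocytes, and the upstream starts give the golli transcripts, which are also known from immune cells. The annotation has 4 transcripts starting between 82475146 and 82475370 and 12 starting between 82554470 and 82563262. Dividing the reads this way was chosen after the data were seen and is given without a test. Upstream transcripts held 50 reads in controls and 74 in phagocytosis libraries, and downstream transcripts 49 and 581. In CPM of the pooled reads the upstream transcripts went from 9.94 to 6.61 and the downstream ones from 9.74 to 51.9. Upstream values of single libraries overlapped between states, from 4.43 to 24.2 CPM in controls and from 0 to 11.7 in phagocytosis libraries, and the added reads lay on the downstream transcripts. The fitted log2 fold change was 2.38 ± 0.53 for downstream and -0.62 ± 0.41 for upstream reads. Of the upstream reads, 15.7 in controls and 0 in phagocytosis libraries were on transcripts that also contain the last exon of the gene. No direction is therefore given for the upstream reads.

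By library, downstream transcripts held 48.2% ± 31.2 of the Mbp reads in controls (SD, n = 8; range 0 to 77.8%) and 87.7% ± 6.16 in phagocytosis libraries (n = 16; range 76.9 to 100%). Control libraries had only 4 to 20 Mbp reads each to divide. In the second female NL4-/- control all 18 reads were given to upstream transcripts, 13.4 of them to Mbp-201, which begins at an upstream start but contains the last exon of the downstream transcripts as well. A division by the last exon avoids that choice: 2 upstream transcripts, Mbp-205 and Mbp-208, lack it and 14 transcripts have some of it. Transcripts with the last exon held 64.6 reads in controls and 579 in phagocytosis libraries, and those without it 36.0 and 75.4. Their share was 62.3% ± 15.4 in controls (range 34.0 to 75.9%) and 87.3% ± 6.45 in phagocytosis libraries (range 76.2 to 100%). By starts the states overlapped, and by the last exon the ranges met almost edge to edge. The highest control, female NL4-/- control 1, had only 6.9 reads with that exon and 2.2 without, too few to separate the states. This division too was chosen after the data were seen, and how often other genes part in this way was not worked out. Mbp-211 alone went from 38.9 pooled reads to 499.5, while Mbp-205, the main upstream transcript, went from 27.9 to 61.7.

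**Figure D2:**
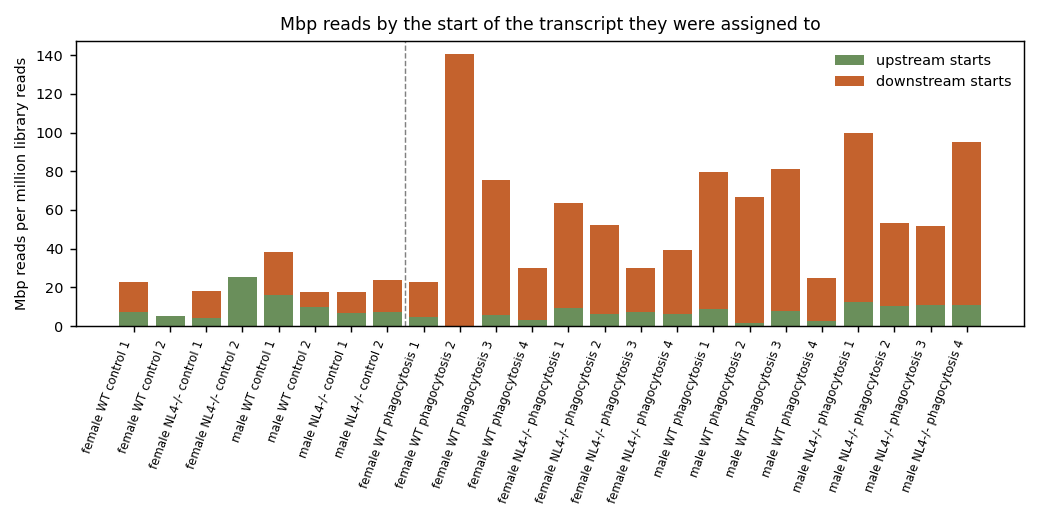
Mbp reads in each of the 24 libraries as CPM of the library total, stacked by whether the reads were assigned to transcripts with an upstream or a downstream start; controls are left of the dashed line. The downstream part is absent in 2 controls and makes up 76.9 to 100% of each phagocytosis bar. Both of these controls had reads on Mbp-201, an upstream-start transcript that also contains the last exon.

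Mobp, a small basic protein of compact myelin, lies on chromosome 9 at 120149707 to 120181484 on the plus strand. It had few reads everywhere. Controls had 0, 5, 1 and 1 reads in females and 1, 2, 1 and 4 in males, listing WT before NL4-/-. The phagocytosis libraries of female WT mice had 6, 22, 6 and 1 reads, those of female NL4-/- mice 9, 6, 7 and 0. In male WT mice they had 16, 12, 1 and 9 reads and in male NL4-/- mice 8, 6, 18 and 1. Thus 8 of 16 phagocytosis libraries lay above the highest control (9.46 CPM), and each sex and genotype also had a phagocytosis library with 0 or 1 reads. Mobp stood at 3.32 ± 3.02 CPM in controls and 12.1 ± 11.7 in phagocytosis libraries, a log2 fold change of 1.89 ± 0.70 that did not pass (adjusted p = 0.0660 by edgeR). DESeq2 called it (adjusted p = 0.0235), and so did edgeR without the expression filter (0.00255), where 3 of the 9 genes were called against 5.15% of the 26375 genes with a read. The pooled rate ratio, from 128 and 15 reads, was 3.84 with an exact interval of 2.24 to 7.06 for counting error. Most Mobp reads went to Mobp-204, a transcript annotated as a target of nonsense-mediated decay and the annotated one that extends to the far end of the gene. It held 8.2 of the control reads and 101.5 of the phagocytosis reads, whereas Mobp-202 and Mobp-201, which code for protein, held 18.1 and 6.6 of the phagocytosis reads.

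Mog, the myelin oligodendrocyte glycoprotein of the outer myelin surface, had 0 reads in controls and 2 in phagocytosis libraries, in female NL4-/- phagocytosis 1 and 2. A count of 0 in all controls allows up to 0.596 CPM. Mal, a proteolipid of myelin membrane, had 2 control reads and 1 phagocytosis read, a ratio of 0.225 with an interval of 0.00381 to 4.32. Cldn11, the claudin of myelin's tight junctions, had 1 read, in male WT control 1, and 0 in phagocytosis libraries, which allows up to 0.268 CPM. These genes gave no measure of a difference between states at this depth. For scale, 1999 receptor genes of smell, pheromone and taste cells had a median of 2 pooled reads over the same 24 libraries, and 57.0% of them had at least 2.

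Mag, the adhesion protein that holds myelin's innermost layer to the axon, was read in every library, from chromosome 7 at 30899176 to 30914873 on the minus strand. In females the controls had 34 and 33 (WT) and 21 and 34 (NL4-/-) reads, and in males 14 and 31 and 18 and 24. In phagocytosis libraries it ranged from 15 to 42 reads with a median of 24. Mag was at 43.3 ± 7.83 CPM in controls and 36.3 ± 8.77 in phagocytosis libraries, with a log2 fold change of -0.26 ± 0.17 (adjusted p = 0.338 by edgeR). Of the phagocytosis libraries 0 lay above all controls and 5 lay below all of them. On length-scaled counts the sign turned, to a log2 fold change of 0.22 (adjusted p = 0.718), so no direction is given for Mag. Its reads fell on a full-length coding transcript, Mag-201, which held 80.2% of the control reads and 81.1% of the phagocytosis reads.

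Cnp, the enzyme 2',3'-cyclic nucleotide 3'-phosphodiesterase of the myelin cytoplasm, was the most read of the 9 genes. It lies on chromosome 11 at 100574904 to 100591729 on the plus strand. Controls held 30 to 77 reads (median 46.5) and phagocytosis libraries 51 to 105 (median 63). The levels were 85.5 ± 11.0 and 102 ± 19.8 CPM, a log2 fold change of 0.25 ± 0.14 (adjusted p = 0.249 by edgeR). The pooled rate ratio of 1.22 (1.09 to 1.37) lies above 1 for counting error alone, and 10 of 16 phagocytosis libraries lay above every control while male WT phagocytosis 1 lay below. Cnp overlaps Dnajc7, a co-chaperone gene on the other strand, through Cnp-202, the transcript with the widest span, and reads there cannot be assigned to a strand. Cnp-202 held 4.7 and 26.7 reads, and Cnp-201, which ends before Dnajc7 begins, 412.5 and 1110. Dnajc7 itself fell by 0.37 ± 0.12 on the log2 scale (adjusted p = 0.0322 by edgeR).

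Cspg4 codes for the NG2 proteoglycan of oligodendrocyte progenitors and pericytes, and had the highest fold of the 9 genes. It lies on chromosome 9 at 56865033 to 56899870 on the plus strand. The 8 controls had 0, 3, 2 and 0 reads in females and 0, 1, 0 and 3 in males. No control had more than 3 reads, and 4 of the 8 had 0. Female phagocytosis libraries had 27, 9, 17 and 3 reads in WT mice and 14, 11, 13 and 13 in NL4-/- mice. Male ones had 26, 7, 50 and 5 reads in WT mice and 9, 9, 42 and 14 in NL4-/- mice. All 16 phagocytosis libraries thus had at least 3 reads of Cspg4. It stood at 2.08 ± 2.69 CPM in controls and 23.6 ± 17.6 in phagocytosis libraries (adjusted p = 0.000967 by edgeR), and 14 of 16 lay above the highest control of 7.09 CPM. The pooled ratio, from 269 and 9 reads, was 13.4 with an exact interval of 6.97 to 29.7 for counting error. Without the 3 controls rich in satellite-like reads the log2 fold change was 4.83 (adjusted p = 0.0121). That fit too leaves a single control library in each group that lost a control. Male WT phagocytosis 3 (73.3 CPM) and male NL4-/- phagocytosis 3 (53.5 CPM) were the highest libraries. The coding transcript Cspg4-201 held 0 control reads and 156.1 phagocytosis reads, and Cspg4-204, a retained-intron transcript from the end of the gene, held 5.0 and 99.5.

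**Figure D3:**
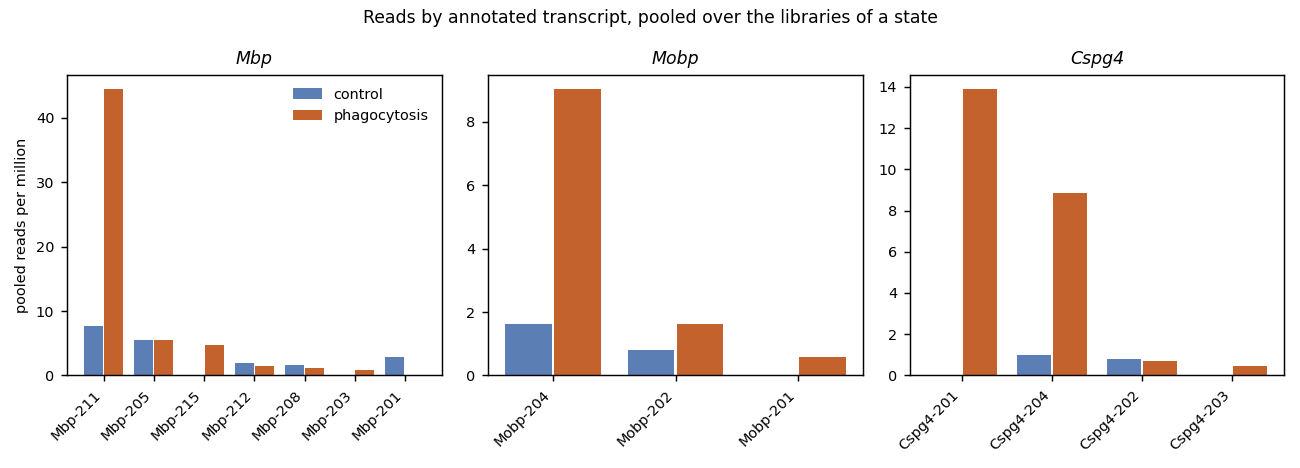
Reads of Mbp, Mobp and Cspg4 by annotated transcript, as CPM of the reads pooled over the 8 control or 16 phagocytosis libraries; transcripts with 5 or more reads are shown. Mbp-211, Mobp-204, Cspg4-201 and Cspg4-204 hold most of the reads of the phagocytosis libraries.

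The promoters of Mobp and Cspg4, the genes with the 2 highest folds, and of Cnp are shown to set their letters side by side. Of these genes only Cspg4 was called. A RefSeq (GRCm38.p6) start was used for 7 of the 9 genes. No stretch was taken for Mbp or Olig1, which does not mean that RefSeq lacks a start for them. The stretches run from -250 to -76 relative to the RefSeq start, 175 bases each, 5′ to 3′ on the plus strand. They lie at chr9:120149492-120149666 for Mobp, chr9:56864854-56865028 for Cspg4 and chr11:100574689-100574863 for Cnp. Capitals mark the letters ACAAAG or, on the other strand, CTTTGT, the core that SOX factors such as Sox10 bind.
Mobp: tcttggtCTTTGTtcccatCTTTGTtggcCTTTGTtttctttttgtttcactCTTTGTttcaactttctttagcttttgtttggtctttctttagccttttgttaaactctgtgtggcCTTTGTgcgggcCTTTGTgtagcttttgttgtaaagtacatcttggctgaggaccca
Cspg4: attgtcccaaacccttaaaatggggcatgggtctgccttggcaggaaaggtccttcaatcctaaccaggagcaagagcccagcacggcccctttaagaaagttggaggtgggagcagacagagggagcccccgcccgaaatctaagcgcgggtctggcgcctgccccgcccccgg
Cnp: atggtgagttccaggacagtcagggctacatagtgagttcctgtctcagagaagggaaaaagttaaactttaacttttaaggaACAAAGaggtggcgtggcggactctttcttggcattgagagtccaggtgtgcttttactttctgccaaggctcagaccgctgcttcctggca
The Mobp stretch holds the letters 6 times, at -243, -231, -221, -198, -132 and -120 from the start, the Cnp stretch once, at -167, and the Cspg4 stretch 0 times. Of 32851 promoter stretches of this length 11.9% hold them at least once, and Mobp's is the only 1 with 6 or more. The cutoff of 6 is Mobp's own count, so this rank describes its sequence and tests nothing. The letters of AP-1 (TGANTCA), of PU.1 (GAGGAAG), of an E-box (CAGCTG) and of a TATA box (TATAAA) were searched on both strands too. They occur in 4.78%, 7.10%, 8.93% and 8.22% of all stretches and in 0 of these 3. Among the stretches not printed, a Mag start had PU.1 letters at -234 and SOX letters at -126. Another Mag start had PU.1 letters at -175, and the stretches of Mog, Cldn11 and Mal held no match. A match of letters is a description of the sequence and not a measured binding site.

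Reads of other genes known from cells that carry NG2 are given beside Cspg4. Olig1, the transcription factor of the lineage on chromosome 16 at 91269772 to 91271933, had 0 control reads and 2 phagocytosis reads, in male WT phagocytosis 2 and male NL4-/- phagocytosis 1. Its partner Olig2 had 0 and 2 reads, and Sox10, another lineage factor, 2 and 3. Pdgfra, the growth factor receptor of progenitors, had 9.1 reads in controls and 16.7 in the more numerous phagocytosis libraries. Scaled to the library total it stood at 1.92 ± 1.47 CPM in controls and 1.53 ± 2.17 in phagocytosis libraries (SD). The 8 pericyte markers summed to 5.84 ± 2.33 CPM in controls and 6.99 ± 3.55 in phagocytosis libraries, with Pdgfrb at 1 and 5 reads and Rgs5 at 1 and 4. These markers were named for their role after their values had been seen, and the part of progenitors or pericytes in the Cspg4 reads was not tested.

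In a wider list of 45 other myelin and mature oligodendrocyte genes, 9 passed the filter, of which 0 were called higher and 1 lower, with a median log2 fold change of 0.05. The gene called lower was Trf, the iron carrier transferrin, which fell by 0.57 ± 0.15 on the log2 scale (adjusted p = 0.0135 by edgeR). With Tmem63a, a membrane channel gene (-0.40 ± 0.15, adjusted p = 0.0647 by edgeR), and Enpp2, the enzyme autotaxin (1.14 ± 0.99, adjusted p = 0.505 by edgeR), it had the most reads of the list. Enpp2 was uneven: 13 phagocytosis libraries held reads of it, with 1622 of its 3403 phagocytosis reads in male NL4-/- phagocytosis 3. Of the 45 genes 19 had 10 or fewer reads over all libraries, and Gjb1, a myelin gap junction gene, had 0.

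Of 20 other progenitor genes only Xylt1, an enzyme that starts proteoglycan sugar chains, passed the filter, and it was called higher, by 1.48 ± 0.49 (adjusted p = 0.0294 by edgeR). It went from 20 to 110 reads, or from 4.15 ± 3.24 to 9.36 ± 4.84 CPM (SD). Xylt1 too passed the filter only through phagocytosis libraries. Bcan and Tnr, matrix genes of the nervous system with the next highest reads, had 18 and 12 control reads and 34 and 22 phagocytosis reads. Per depth neither rose: Bcan stood at 3.79 ± 2.25 and 2.93 ± 2.12 CPM and Tnr at 2.80 ± 2.36 and 2.03 ± 2.15 (SD). In that list 11 of the 20 genes had a higher mean CPM in phagocytosis libraries, 10 genes had 10 or fewer reads and C1ql1 had 0. Read against the 13.6% called over all genes, the 2 lists together hold too few tested genes to set their counts apart. Markers of other cells did not move together between controls and phagocytosis libraries. The astrocyte gene Gfap had 8 and 152 reads, whereas Slc1a3 went from 89.2 ± 25.6 to 60.7 ± 13.2 CPM (SD). The neuronal gene Uchl1 had 11 and 352 reads, whereas Thy1 stood at 24.8 ± 10.1 and 26.7 ± 7.61 CPM. The part of such cells in the values of Mbp and Cspg4 was not tested.

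**Figure D4:**
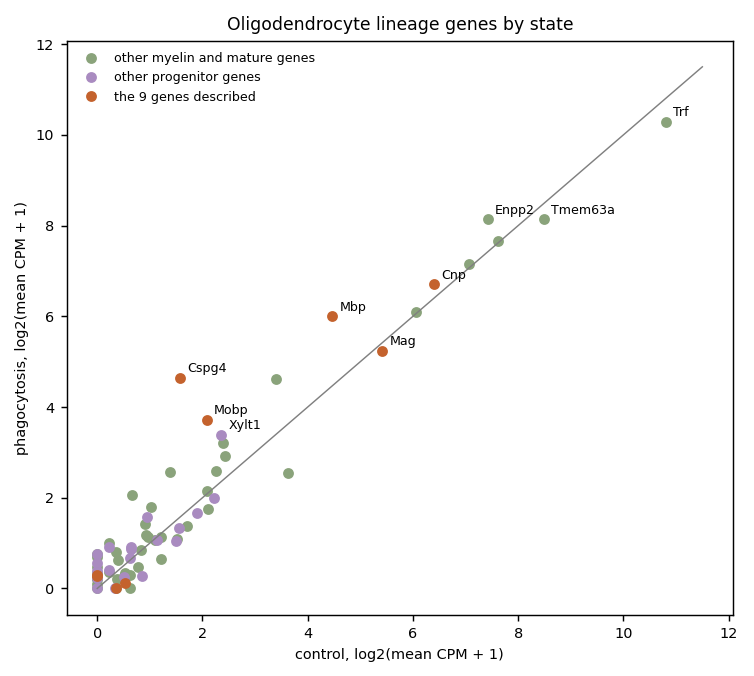
Mean CPM, scaled to the library total, of the 9 genes described and of 45 and 20 other genes of the lineage, in controls (x axis) and phagocytosis libraries (y axis), as log2(CPM + 1); the line marks equal levels. Cspg4, Mbp and Mobp lie above the line, Mag, Cnp and Trf close to it, and most other genes near the origin.

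Within single groups, none of the 5 genes tested was called by edgeR in female WT, female NL4-/-, male WT or male NL4-/- mice, where 0.581%, 0.469%, 0.326% and 0.602% of all genes were called. Each rests on 2 control libraries. The log2 fold changes of Mbp in that order were 2.16 ± 0.70, 1.01 ± 0.69, 1.20 ± 0.67 and 1.75 ± 0.73, with unadjusted p-values of 0.00548, 0.158, 0.0853 and 0.0253 in the edgeR fit. Those of Cspg4 were 3.34 ± 1.25, 3.26 ± 1.40, 4.80 ± 1.53 and 2.89 ± 1.26, with unadjusted p-values of 0.0111, 0.0237, 0.00317 and 0.0280. Both genes therefore had a positive fold in all 4 sex and genotype groups, with errors too wide for a call in any. DESeq2 called 1 of the 5 in female WT mice and 0 in the other groups.

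**Figure D5:**
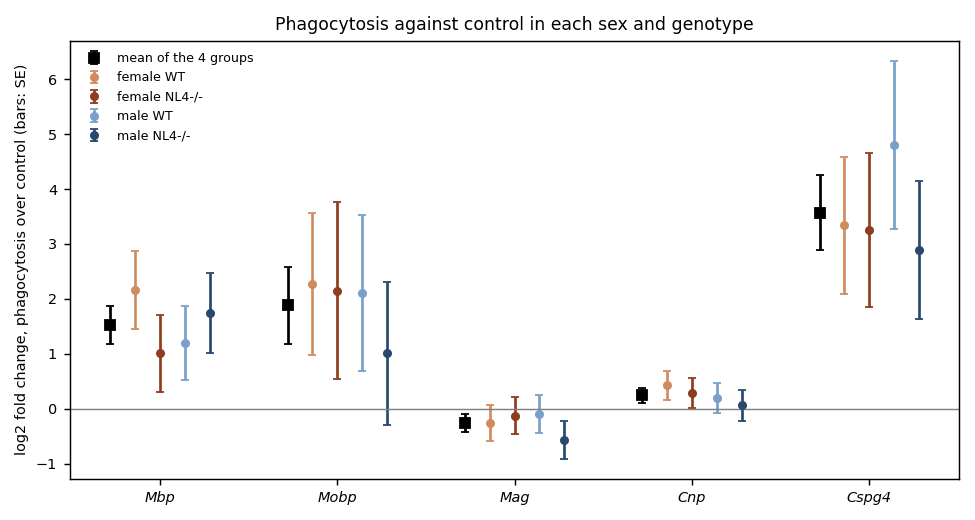
Log2 fold change of phagocytosis over control for the 5 genes tested, averaged over sexes and genotypes (squares) and in each combination of them (circles); bars are standard errors. Mbp, Mobp and Cspg4 lie above 0 throughout, between 1.01 and 4.80, and Mag and Cnp between -0.56 and 0.43.

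Genotype and sex were compared in the phagocytosis libraries, where groups have 4 libraries. Of the 5 genes 0 were called between NL4-/- and WT by edgeR (0.0% of all genes called, 500 of 9803 at an unadjusted p below 0.05, and 1 by DESeq2). Mbp differed by -0.13 ± 0.34 and Cspg4 by -0.09 ± 0.48 on the log2 scale. Between males and females 0 of the 5 were called (0.0408% of all genes, 466 at an unadjusted p below 0.05, and 7 by DESeq2), with differences of 0.33 ± 0.34 for Mbp and 0.58 ± 0.48 for Cspg4. The interactions of state with genotype and with sex called 0 genes of all tested by edgeR (0.0% each, 276 and 190 at an unadjusted p below 0.05, and 1 each by DESeq2). For Mbp they were -0.30 ± 0.70 and -0.11 ± 0.70, and for Cspg4 -0.997 ± 1.73 and 0.55 ± 1.74. These errors leave room for differences of the size of the state difference itself, so equal responses are not shown.

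Levels between genes are compared on the deposited TPM, which are divided by transcript length. In controls the order was Cnp at 26.9 ± 9.49 TPM (SD, n = 8), Mag at 15.4 ± 6.94, Mbp at 7.23 ± 4.67, Mobp at 1.81 ± 1.28 and Cspg4 at 0.362 ± 0.568. In phagocytosis libraries it was Cnp at 37.7 ± 10.4 TPM (n = 16), Mbp at 29.8 ± 18.4, Mag at 23.4 ± 13.2, Mobp at 5.14 ± 5.45 and Cspg4 at 3.87 ± 3.42. Mbp thus stood between Mag and Mobp in controls and between Cnp and Mag in phagocytosis libraries, and there the neighbours Cnp and Mbp, Mbp and Mag, and Mobp and Cspg4 differed by less than their SD. The microglial receptor gene Cx3cr1 was at 1634 ± 597 and 1662 ± 572 TPM, so even the highest of the 9 genes stayed far below a marker of the sorted cells.

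Correlations between the genes across libraries ranged from negative to positive. As deviations from the 8 group means over 24 libraries, Mbp correlated with Mobp at r = 0.095 (0.10 without the 2 most distant libraries) and with Cspg4 at r = 0.07 (0.0062 without 2). Mobp correlated with Cspg4 at 0.25 (rho = 0.33, and 0.49 without 2), Mag with Cspg4 at 0.34 (0.38 without 2), and Cnp with Cspg4 at -0.48 (-0.44 without 2). These libraries share their totals and their low counts, and the values are descriptions. Mbp deviated against the total reads of a library (r = -0.58, rho = -0.56, and -0.36 without the 2 most distant libraries). Cspg4 deviated with the share of reads on the receptor genes of smell, pheromone and taste cells (r = 0.56, rho = 0.57, and 0.48 without 2 libraries). The genes most like Mbp by this measure among the 9803 tested were Bola2 (r = 0.87), Hmox1, the heme-degrading enzyme (0.86), and Rpl8, a ribosomal protein (0.83). Those most like Mag were Cyb561d1 (0.80), Dctn2 (0.79) and Tns1 (0.78), and those most like Cnp were Ubb (0.85), Slc31a2 (0.83) and Ppp5c (0.78). These are the highest values picked by rank from the 9803 genes, and how high chance alone would reach was not worked out.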

How the data were processed

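Per the file headers, the authors deposited for each library and transcript a length, an effective length (the unit here called other), an expected count of reads and a TPM. Quantifier, index, genome build and read filtering: not given in the sources used here. Deposited expected counts are not normalised and divide reads among transcripts that share sequence. The deposited TPM account for effective length and have the same sum in every library. Of 116945 transcripts 116023 matched GENCODE M21 (GRCm38) by identifier; the 922 others, 0.274 to 0.379% of a library's reads, were left out. Expected counts were summed per gene and rounded, so sums of parts can differ by a read or so. Reads were totalled at 421107 to 1013797 per library, and intervals and floors (3 counts) cover counting error only.

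Genes were tested with edgeR 4.0.16 in R 4.3.3 (robust quasi-likelihood F test, TMM, filterByExpr by group, minimum count 10, prior count 0.125, 8 group means, all 24 libraries), with Benjamini-Hochberg adjustment. SEs were worked back from the fold and F. Values in CPM are TMM-normalised except marker sums and single markers named by CPM beside them, which are scaled to the library total. The fit was tested on simulated data. Alternatives were DESeq2 1.42.0, no filter, totals without TMM, totals without satellite-like genes, length-scaled counts, coding transcripts only, a replicate block, subsets of libraries and each library left out. Summaries used Python 3.11.15 and scipy 1.17.1. Rate ratios of pooled reads carry exact 95% intervals.

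The members, lists and alternatives were chosen with earlier results of these data known. By rule every member is named, and from each wider list up to 6 genes past the threshold and the 3 with the most reads, overlapping or neighbouring genes, and the 3 genes most like each member with a mean of at least 20 reads, by Pearson r of log2(CPM + 1). Of the neighbours only Dnajc7 passed the threshold. Single exceptions are identified in the text. Low-count members are given as reads.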

Additional observations from a re-analysis of the deposited data

Results flagged for a closer look

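Dixon's test was applied to the 4 phagocytosis libraries of each sex and genotype for the 5 genes tested and for both parts of Mbp, 28 groups in all, and 2 held a library that stood apart. Chance alone marks about 1 in 20 such groups, so 2 of 28 is no pattern. Mobp was at 48.5 CPM (22 reads) in female WT phagocytosis 2, where the other libraries of the group had 1 to 6 reads. The same library had the highest Mbp of all 24 (139 CPM, 63 reads) and the highest Cnp (130 CPM). Downstream-start Mbp was at 21.6 CPM (17 reads) in male WT phagocytosis 4, whereas the next lowest library of that group was at 66.1 CPM. What set these libraries apart was not tested.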

How the results depend on the processing

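The number of the 9 genes called between states was 2, and 1 without the 3 controls rich in satellite-like reads, where only Cspg4 remained past the threshold. It ranged from 2 to 3 with each library left out. Within single groups the count of 0 became 1 with DESeq2 in female WT mice, and without the filter 2, 1, 1 and 2 in female WT, female NL4-/-, male WT and male NL4-/- mice; it was 0 with each library left out. Genotype, sex and interaction comparisons gave 0 members under all alternatives run. Cspg4 was past the threshold in 10 of 10 other alternatives and 24 of 24 fits with a library left out, Mbp in 9 of 10 and 24 of 24, and Mobp in 4 of 8 and 4 of 24 (adjusted p by edgeR 0.0280 to 0.148 with a library left out). Mobp was not among the genes tested in the alternatives missing from its count. Over the alternatives other than leaving a library out, its log2 fold change ran from 1.05 to 2.48. Mag turned to a log2 fold change of 0.22 with length-scaled counts. Totals without satellite-like genes gave 654 higher and 707 lower calls over all genes, against 822 and 508, and totals without TMM 983 and 351; Mbp and Cspg4 were called under both. All genes called without the 3 controls numbered 410, 1772 from phagocytosis libraries 1 and 2 only, where Mobp was called beside Mbp and Cspg4, and 782 from libraries 3 and 4 only.

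No pairing by replicate number was seen, though its absence is not shown. Deviations of 68 pairs with the same number correlated with a median r of 0.0061 (-0.11 to 0.15), 4 of them over 0.1. The 180 pairs with different numbers had a median r of -0.0043 (-0.14 to 0.18), 12 of them over 0.1. In control groups of 2 libraries the deviations mirror each other, which limits this comparison. With a replicate block 3 members were called, namely Mbp, Cspg4 and Mobp (Mobp log2 fold change 2.48, adjusted p by edgeR 0.00864), among 1645 genes. A gene at 10 CPM rests on 4 to 10 reads, which limits Mobp and Cspg4 in controls.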
